A study of Mus musculus with 6 samples.

Results

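The piriform and entorhinal cortex was compared with the CA2 and CA3 area of the hippocampus, the reference regions that had been captured beside the parvafox nucleus. The comparison rests on 4 of the 6 Affymetrix Mouse Gene 2.0 ST arrays of the study, with 1 cortex and 1 hippocampus array from mouse 355 and 1 of each from mouse 511. Each gene was read at its brightest probe set among those with a single gene symbol, and the difference cortex minus hippocampus was taken within each mouse. Of 22180 genes, 11457 had the same direction in both mice, and these are the genes described.

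Both groups came from untreated adult C57BL/6 mice, and both passed through freezing, ethanol-fixed cryosections, laser capture and amplification of total RNA. Cells were not sorted, so every array holds the neurons, glia and vessels of the excised tissue, and fewer cells of a type cannot be told apart from less RNA per cell. The animals were the pair whose RNA was best preserved, and the captured piece of each region is known only by its name.

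The piriform cortex receives the olfactory bulb and lies next to the endopiriform nucleus, the amygdala and the ventral striatum, while the entorhinal cortex sends the perforant path into the hippocampus. Within the hippocampus, granule cells of the dentate gyrus project through mossy fibers to CA3, CA3 projects to CA1, and CA2 lies between these fields. Principal neurons of the cortex and of the hippocampal fields use the vesicular glutamate transporter Vglut1, whereas the projection neurons of the striatum are GABAergic.

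Cortex and hippocampus of 1 mouse differed about as much as the same region of different mice. The median absolute difference of a gene was 0.23 on the log2 scale between cortex and hippocampus of mouse 355 and 0.228 in mouse 511. Between the animals it was 0.241 in the cortex and 0.239 in the hippocampus. A difference of at least 2-fold was found for 836 genes between the regions of mouse 355 and for 927 in mouse 511, and for 898 genes between the cortex arrays and 667 between the hippocampus arrays. Array medians lay between 3.54 and 3.68 on the log2 scale. Mouse 355 had Xist signals of 6.39 to 6.98 and mouse 511 of 3.50 to 3.85, so sex and mouse cannot be told apart.

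The share of genes with the same direction was 51.7%, with 6018 genes (27.1%) brighter in the cortex of both mice and 5439 (24.5%) brighter in the hippocampus of both. All counts of list members by direction given below are to be read beside these shares. Across genes, which are not independent replicates, the within-mouse differences of the animals correlated with an r of 0.099. For the nucleus, measured against the same arrays, r was 0.281 relative to the cortex and 0.404 relative to the hippocampus. The share with the same direction was 54.3% and 56.6%. Among the 5545 dimmest genes 50.0% had the same direction and r was 0.024, and among the 5545 brightest these were 53.6% and 0.195.

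At least 2-fold in the same direction in both mice were 68 genes brighter in the cortex (0.307% of all genes) and 44 brighter in the hippocampus (0.198%), while 41 genes (0.185%) differed 2-fold in opposite directions. Mouse 355 alone gave 471 genes for the cortex and 365 for the hippocampus, and mouse 511 alone gave 418 and 509. For all 68 and all 44 genes, both arrays of the brighter region lay above their array medians. Gabrg3, a GABA-A receptor subunit, lay just inside this limit with differences of 1.00 in mouse 355 and 1.10 in mouse 511, and Rad54l just outside it with 0.98 and 1.02. On the hippocampal side, Prelp lay just inside with -1.01 and -1.08, and Prdx4 just outside with -1.02 and -0.99.

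None of the 41345 probe sets passed an adjusted p of 0.05 between cortex and hippocampus in limma, which used the 6 arrays together with terms for region and for mouse. The smallest adjusted p was 0.98, and 1958 probe sets (4.74%) had an unadjusted p under 0.05. Among the genes, 450 (2.03%) had such a p with the brighter signal in the cortex and 487 (2.2%) with the brighter signal in the hippocampus. Every gene named below had an adjusted p of 0.98 or more in this fit, so the differences are given by mouse. The p-values without adjustment rest on how unevenly the regions, with the nucleus among them, differed in 2 animals. They also borrow a variance estimate from all probe sets. An exact two-sided permutation test of 2 arrays against 2 that ignores the pairing within mouse cannot go below 0.333. Keeping the pairs leaves fewer arrangements still.

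**Figure D1:**
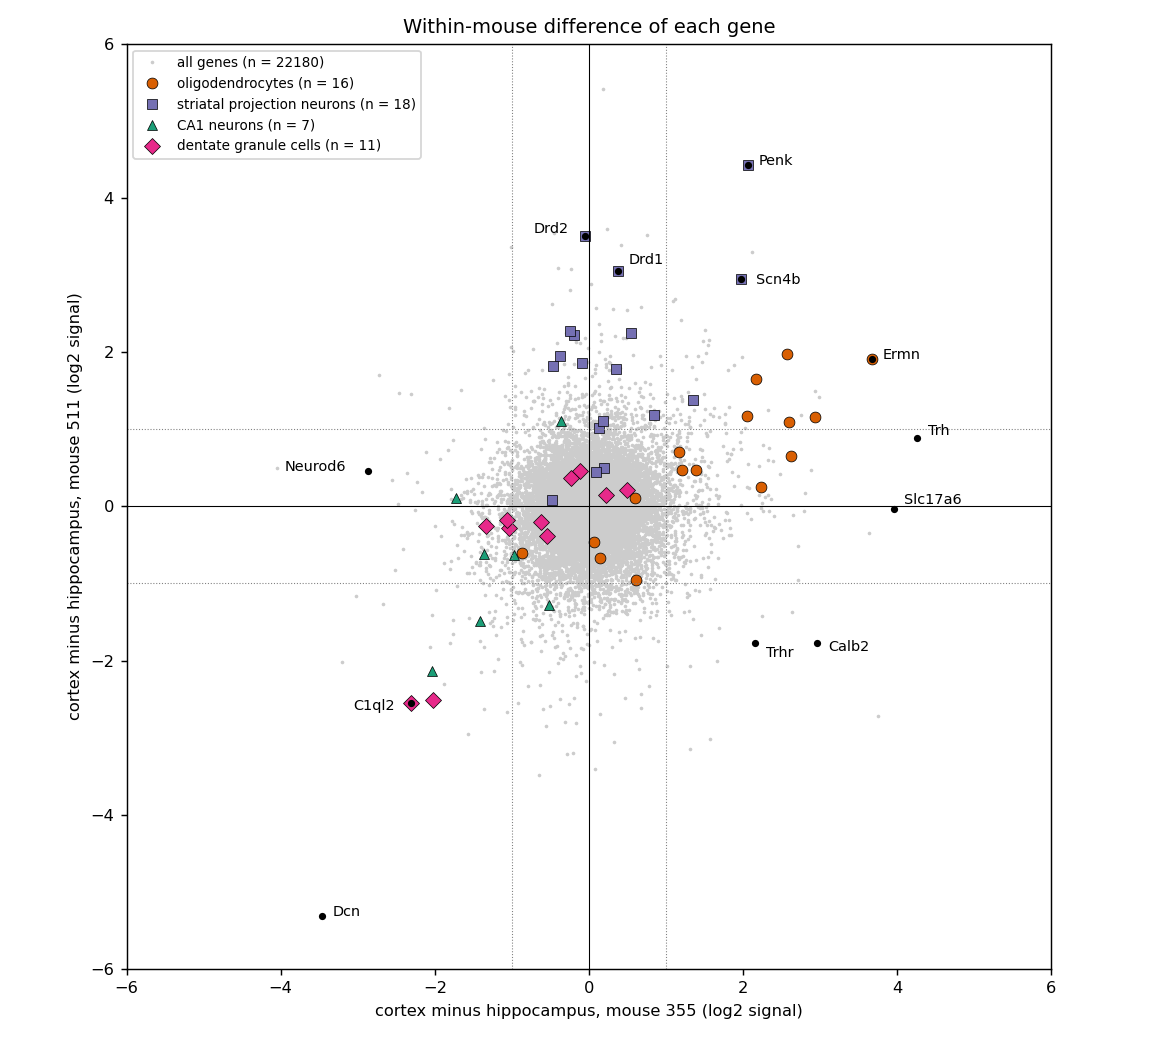
Each point is a gene, with cortex minus hippocampus in mouse 355 on the x axis and in mouse 511 on the y axis (log2 signal), and dotted lines mark 2-fold. Most oligodendrocyte genes lie to the upper right, striatal genes lie high on the y axis, and C1ql2 and Dcn lie to the lower left.

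Genes of myelin were brighter in the cortex of both mice. Of 16 measured oligodendrocyte genes, 12 were brighter in the cortex of both mice, 1 was brighter in the hippocampus of both, and 6 were at least 2-fold brighter in the cortex of both. Over all genes these shares were 27.1%, 24.5% and 0.307%. The median difference of the list was 1.72 in mouse 355 and 0.56 in mouse 511, beside 0.007 and 0.015 over all genes. At an unadjusted p under 0.05 in limma were 9 of the 16, all brighter in the cortex, beside 2.03% of all genes on that side.

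Claudin 11, the tight junction protein of the myelin sheath, had a log2 signal of 10.10 in the mouse 355 cortex and 10.03 in the mouse 511 cortex, against 7.53 and 8.05 in the hippocampus. Its gene, Cldn11, was thus 5.94-fold and 3.94-fold brighter in the cortex, a log2 fold change of 2.27 (standard error 0.29, unadjusted p = 0.000675 from limma). Ermin, a cytoskeletal protein of myelinating oligodendrocytes, was uneven in the hippocampus. Ermn stood at 8.70 and 8.36 in the cortex and at 5.03 and 6.45 in the hippocampus of mouse 355 and mouse 511, so the cortex was 12.7-fold and 3.75-fold brighter. Mobp, an abundant basic protein of compact myelin, had 9.31 and 8.88 in the cortex against 7.14 and 7.22 in the hippocampus (log2 fold change 1.91, standard error 0.24, unadjusted p = 0.000612 from limma). In all of these genes the cortex arrays stood clear of the hippocampus arrays. The same held for 12 of the 16 list genes, beside 17.3% of all genes.

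Mag, the adhesion molecule between myelin and axon, had within-mouse differences of 2.60 and 1.10, and Mal, a proteolipid of myelin membranes, had 2.05 and 1.17. Ugt8a, the enzyme that makes galactosylceramide, had 2.94 and 1.16. Smaller differences were found for the structural genes Mbp (1.21 and 0.47) and Cnp (1.17 and 0.71) and for Mog, a surface protein of the sheath (2.62 and 0.65). The mature members were therefore higher in mouse 355 by more than in mouse 511. Transcription factors of the whole lineage were divided. Sox10 (1.39 and 0.47) and Olig1 (0.60 and 0.10) were brighter in the cortex of both mice, while Olig2 was dimmer there, with -0.86 and -0.60, and Pdgfra, Cspg4 and Gpr17 of progenitor cells had opposite directions in the mice. Aspa, which cleaves N-acetylaspartate in oligodendrocytes and is not on the list, had 1.56 and 2.16.

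The mean signal of the 16 genes was 8.06 in the mouse 355 cortex, 7.56 in the mouse 511 cortex, and 6.48 and 7.00 in the hippocampus. In the nucleus it was 8.32 and 8.16, so the cortex of mouse 355 lay nearest to the level of the nucleus. All 16 lay above the array median on every cortex and hippocampus array.

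Promoters are shown for the 3 myelin genes of the list with the largest smaller within-mouse difference, from 250 bases before to 50 after the start (RefSeq, GRCm38.p6), because these members differed together between the regions. Capitals mark CTTTGT, the reverse complement of ACAAAG, a motif of the type that SOX factors bind. The search covered AACAAT and ACAAAG on both strands, and these motifs were chosen after the values were seen.
Cldn11, chr3:31149670-31149969, plus strand: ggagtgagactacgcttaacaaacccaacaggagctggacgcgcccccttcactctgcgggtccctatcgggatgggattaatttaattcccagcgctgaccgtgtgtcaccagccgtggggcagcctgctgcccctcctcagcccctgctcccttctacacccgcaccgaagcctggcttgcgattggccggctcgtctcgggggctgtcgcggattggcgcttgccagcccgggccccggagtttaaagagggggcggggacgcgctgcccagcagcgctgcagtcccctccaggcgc
Ermn, chr2:58052815-58053114, minus strand: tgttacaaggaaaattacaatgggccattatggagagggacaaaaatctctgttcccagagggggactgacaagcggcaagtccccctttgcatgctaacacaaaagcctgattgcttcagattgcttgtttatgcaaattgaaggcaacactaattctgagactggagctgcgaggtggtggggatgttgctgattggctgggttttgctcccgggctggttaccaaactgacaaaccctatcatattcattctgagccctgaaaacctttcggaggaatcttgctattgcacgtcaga
Mobp, chr9:120149492-120149791, plus strand: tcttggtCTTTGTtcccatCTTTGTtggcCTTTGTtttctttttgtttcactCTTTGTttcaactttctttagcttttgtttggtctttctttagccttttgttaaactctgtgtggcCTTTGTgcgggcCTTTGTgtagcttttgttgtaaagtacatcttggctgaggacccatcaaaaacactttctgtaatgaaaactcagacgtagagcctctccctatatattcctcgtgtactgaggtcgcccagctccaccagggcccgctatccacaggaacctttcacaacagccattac
The promoter of Mobp held 6 matches, and those of Cldn11 and Ermn held none. Promoters were given for 12 of the 16 genes, and those of Mag partly overlap, so matches were counted by gene. ACAAAG was found in a promoter of 4 of the 12 genes (33.3%) and of 21.0% of the 27025 genes with a promoter, and AACAAT in 1 (8.33%) and in 12.2%. A match is a description of these letters, not a binding site.

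Genes of striatal projection neurons were brighter in the cortex chiefly in mouse 511. Of 18 measured genes, 11 were brighter in the cortex of both mice and 0 in the hippocampus of both, beside 27.1% and 24.5% of all genes. The median difference, however, was 0.16 in mouse 355 and 1.84 in mouse 511. In mouse 511 all 18 were brighter in the cortex, and in mouse 355 11 were. The mean signal of the list was 5.46 in the mouse 355 cortex and 7.14 in the mouse 511 cortex, and it was 5.12 and 5.26 in the hippocampus.

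Penk, which encodes the precursor of the enkephalins, had a log2 signal of 7.47 in the mouse 355 cortex and 10.15 in the mouse 511 cortex, against 5.40 and 5.72 in the hippocampus. The folds were 4.19 and 21.6, and the cortex arrays lay 2.69 apart. Scn4b, a beta subunit of sodium channels, had 6.20 and 6.96 in the cortex against 4.22 and 4.01 in the hippocampus, a log2 fold change of 2.46 (standard error 0.31, unadjusted p = 0.000656 from limma). Gpr6, an orphan receptor of striatal neurons, had even differences of 1.36 and 1.38, and Pde1b, a phosphodiesterase, had 0.84 and 1.19. In Penk, Scn4b and Gpr6 the regions did not overlap. Both cortex arrays lay above both hippocampus arrays in 8 of the 18 list genes, beside 17.3% of all genes.

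The dopamine receptors separated the cortex arrays from each other. Drd1, the D1 receptor, stood at 3.79 in the mouse 355 cortex and at 8.33 in the mouse 511 cortex, with 3.41 and 5.28 in the hippocampus. Drd2, the D2 receptor, had 5.71 and 8.91 in the cortex against 5.76 and 5.41 in the hippocampus. Mouse 355 thus showed no 2-fold difference in either receptor, and the high value was that of a single array. Tac1, the precursor of substance P, had differences of 0.54 and 2.25, and Pdyn, that of dynorphins, had -0.20 and 2.23. Rarb, a retinoic acid receptor, had -0.25 and 2.28, and Rgs9, a regulator of G protein signals, -0.37 and 1.95.

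Genes outside both lists that were brightest in the cortex relative to the hippocampus had varied roles. Zar1, known from the egg, where it acts at the start of embryonic development, had a log2 signal of 6.62 and 7.36 in the cortex against 4.50 and 4.05 in the hippocampus. Its smaller within-mouse difference, 2.12, was the largest of any gene on the cortical side. Tnfaip6, a secreted protein that binds hyaluronan, had nearly equal differences of 1.98 and 1.94 (log2 fold change 1.96, standard error 0.20, unadjusted p = 0.000232 from limma). Sv2c, a glycoprotein of synaptic vesicles, had 1.88 and 1.83, with 7.19 and 6.69 in the cortex against 5.31 and 4.86 in the hippocampus. Dach1, a transcription factor of the dachshund family, had 5.63 and 5.33 in the cortex against 3.82 and 3.56 in the hippocampus, the latter close to the array medians.

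Kcnv1, an electrically silent subunit that modifies other potassium channels, had 7.58 and 7.98 in the cortex against 6.06 and 6.00 in the hippocampus. Coch, which encodes the matrix protein cochlin, had 5.46 and 5.66 against 3.99 and 3.79. Igfbp6, a binding protein of insulin-like growth factors, had within-mouse differences of 1.55 and 2.09, Cdkn1a, the cell cycle inhibitor p21, had 1.48 and 2.15, and Tmem63a, a channel opened by membrane stretch, had 7.34 and 6.80 in the cortex against 4.41 and 5.30 in the hippocampus. The regions did not overlap in any of the 15 leading genes, and all 15 had an unadjusted p between 0.000232 and 0.0171 in limma. They are the most extreme of 22180 genes on these same arrays, of which 3839 (17.3%) had both cortex arrays above both hippocampus arrays. An unadjusted p under 0.05 in limma on the cortical side was found for 450 genes (2.03%).

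**Figure D2:**
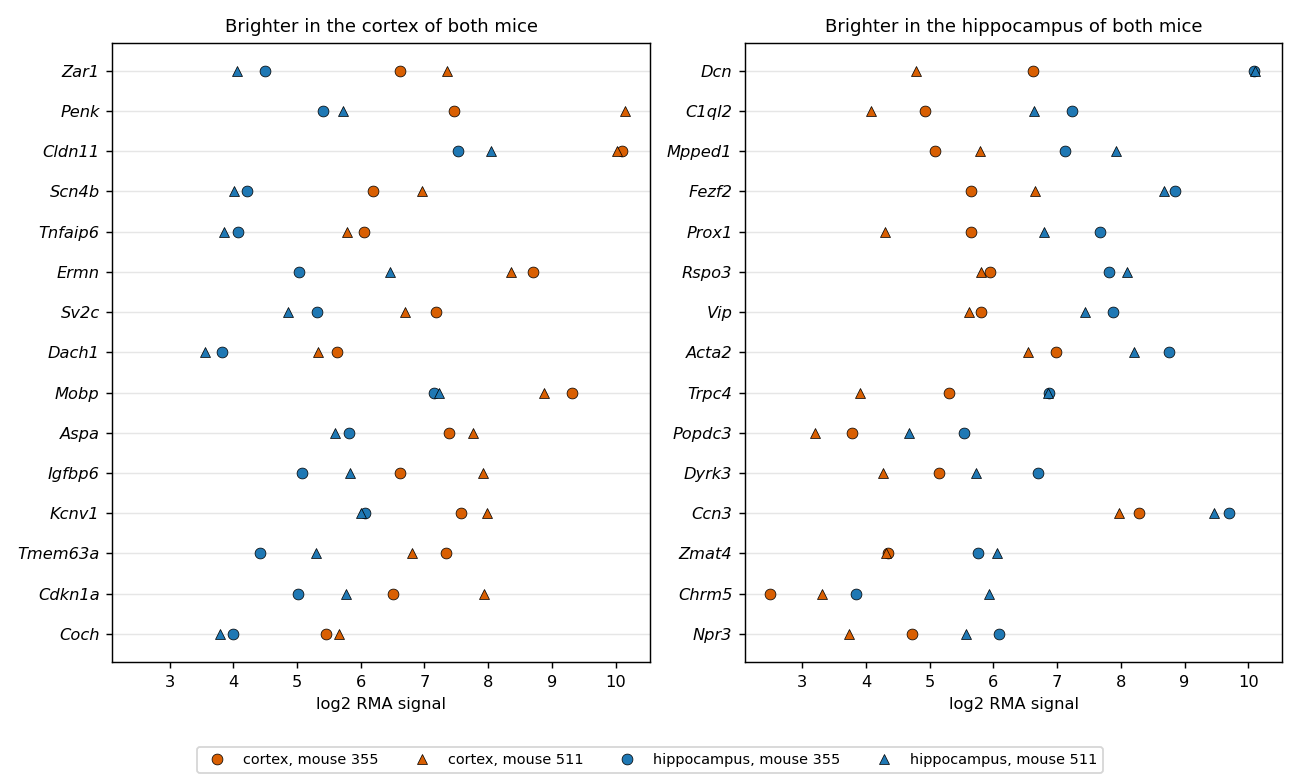
Log2 RMA signal on the 4 arrays for the 15 genes with the largest smaller within-mouse difference in each direction (orange cortex, blue hippocampus; circles mouse 355, triangles mouse 511). In every gene shown, both arrays of one region lie above both arrays of the other; Penk has the widest gap between cortex arrays, and Dcn the widest between regions.

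Dcn was the gene with the widest difference in the hippocampal direction. It encodes decorin, a small proteoglycan of the extracellular matrix that binds collagen. The log2 signal was 10.10 in the hippocampus of both mice and 6.63 and 4.79 in the cortex of mouse 355 and mouse 511. The hippocampus was therefore 11.1-fold and 39.8-fold brighter, a log2 fold change of -4.39 for cortex minus hippocampus (standard error 0.63, unadjusted p = 0.00111 from limma). Decorin is also a product of the meninges, whose other genes showed far smaller values. Lum had differences of -0.81 and -1.13, Slc6a13 had -0.86 and -0.58, and Col1a1 had -0.78 and -0.11, while Col1a2 had -0.06 and -0.01 and Igf2 had 0.11 and 0.03. Lum stood near or below the array median on all 4 arrays. Of the 13 measured genes of meninges, choroid plexus and ependyma, 7 were brighter in the hippocampus of both mice and 5 in the cortex of both. Whether meningeal tissue had a part in the signal of Dcn was not tested.

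Genes of dentate granule cells and of CA1 were among the other leading genes of the hippocampal side. C1ql2, a synaptic protein that mossy fibers release, had 7.24 and 6.63 in the hippocampus against 4.93 and 4.08 in the cortex, so the hippocampus was 4.94-fold and 5.87-fold brighter. Prox1, the homeobox factor that gives granule cells their identity, had 7.67 and 6.80 in the hippocampus against 5.65 and 4.29 in the cortex. Mpped1, a predicted phosphoesterase on the CA1 list, had 7.13 and 7.93 against 5.08 and 5.79, with the smallest unadjusted p of the named genes (0.000149 from limma). Ccn3, a matricellular protein on the same list, had 9.70 and 9.46 against 8.29 and 7.97.

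Fezf2, a zinc finger factor known for the subcortical projection neurons of layer 5, had the brighter signal in the hippocampus, with 8.85 and 8.68 there against 5.64 and 6.66 in the cortex. Rspo3, a secreted amplifier of Wnt signals, had 7.82 and 8.10 in the hippocampus against 5.95 and 5.80 in the cortex. Vip, a peptide of interneurons that contact other interneurons, had 7.87 and 7.44 in the hippocampus against 5.81 and 5.62 in the cortex (log2 fold change -1.94, standard error 0.20, unadjusted p = 0.000258 from limma). In these 3 genes the arrays of a region lay close together, apart from Fezf2 in the cortex, where mouse 511 was higher by 1.02.

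Among the remaining leading genes were Acta2, the actin of vascular smooth muscle (-1.77 in mouse 355 and -1.66 in mouse 511), Trpc4, a cation channel (-1.56 and -2.95), and Npr3, the clearance receptor of natriuretic peptides (-1.36 and -1.83). Chrm5, the muscarinic M5 receptor, had 3.85 and 5.94 in the hippocampus, while its cortex signals of 2.48 and 3.31 lay below the array medians, so the size of its difference depends on the background. Popdc3 had -1.77 and -1.47, Dyrk3, a kinase, -1.55 and -1.45, and Zmat4, a zinc finger protein, -1.41 and -1.75. The 15 genes had an unadjusted p between 0.000149 and 0.0308 in limma, and their regions did not overlap. They were chosen as extremes of 22180 genes on these same arrays, so neither is independent support. On that side 487 genes (2.2%) had an unadjusted p under 0.05 in limma, and 3449 (15.6%) had both hippocampus arrays above both cortex arrays.

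The captured hippocampus is labelled as hippocampus and described as the CA2 and CA3 area, so markers of its fields were set side by side. Genes of CA2 and CA3 did not separate it from the cortex. Of 9 measured CA2 genes, 4 were brighter in the cortex of both mice and 0 in the hippocampus of both, and of 9 CA3 genes 5 and 1 were. Over all genes these shares were 27.1% and 24.5%. Rgs14, a signaling scaffold that marks CA2, had 5.85 and 6.68 in the hippocampus against 6.45 and 6.64 in the cortex. Pcp4, a calmodulin-binding peptide of CA2, had 11.31 and 11.36 in the hippocampus against 11.55 and 12.15 in the cortex, and Amigo2, an adhesion molecule, had differences of 0.70 and 0.05. Both genes are also known outside the hippocampus.

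Of the CA3 markers, Grik4, a kainate receptor subunit, had 5.29 and 5.52 in the hippocampus against 5.31 and 4.90 in the cortex. Bok, an apoptosis regulator of the Bcl-2 family, was brighter in the cortex by 0.24 and 0.70, and Iyd, an iodotyrosine deiodinase, lay below the array median on all 4 arrays. Coch and Cacng5, an auxiliary subunit of AMPA receptors, are on the CA3 and CA2 lists and were more than 2-fold brighter in the cortex, Cacng5 by 1.45 and 1.05. Socs2, a suppressor of cytokine signals, was the single CA3 gene at least 2-fold brighter in the hippocampus, with -1.19 and -1.99.

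Genes of CA1 and of the dentate gyrus showed the opposite pattern. Of 7 measured CA1 genes, 5 were brighter in the hippocampus of both mice and 0 in the cortex of both, with median differences of -1.36 in mouse 355 and -0.64 in mouse 511. Fibcd1 had -0.97 and -0.64 and Pou3f1, a POU domain factor, had -1.36 and -0.61, while Wfs1, a protein of the endoplasmic reticulum, had opposite directions with -0.37 and 1.11. Of 11 dentate genes, 7 were brighter in the hippocampus of both mice and 2 in the cortex of both, with medians of -0.62 and -0.20. For both lists the shares over all genes were 24.5% for the hippocampus and 27.1% for the cortex. Besides C1ql2 and Prox1 the values were small, such as -1.04 and -0.28 for Dsp, a desmosome protein of granule cells, which lay above the array median on 1 of the 4 arrays. The medians thus lay toward the hippocampus for CA1 and granule cell genes, and not for genes of the fields named in its description.

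**Figure D3:**
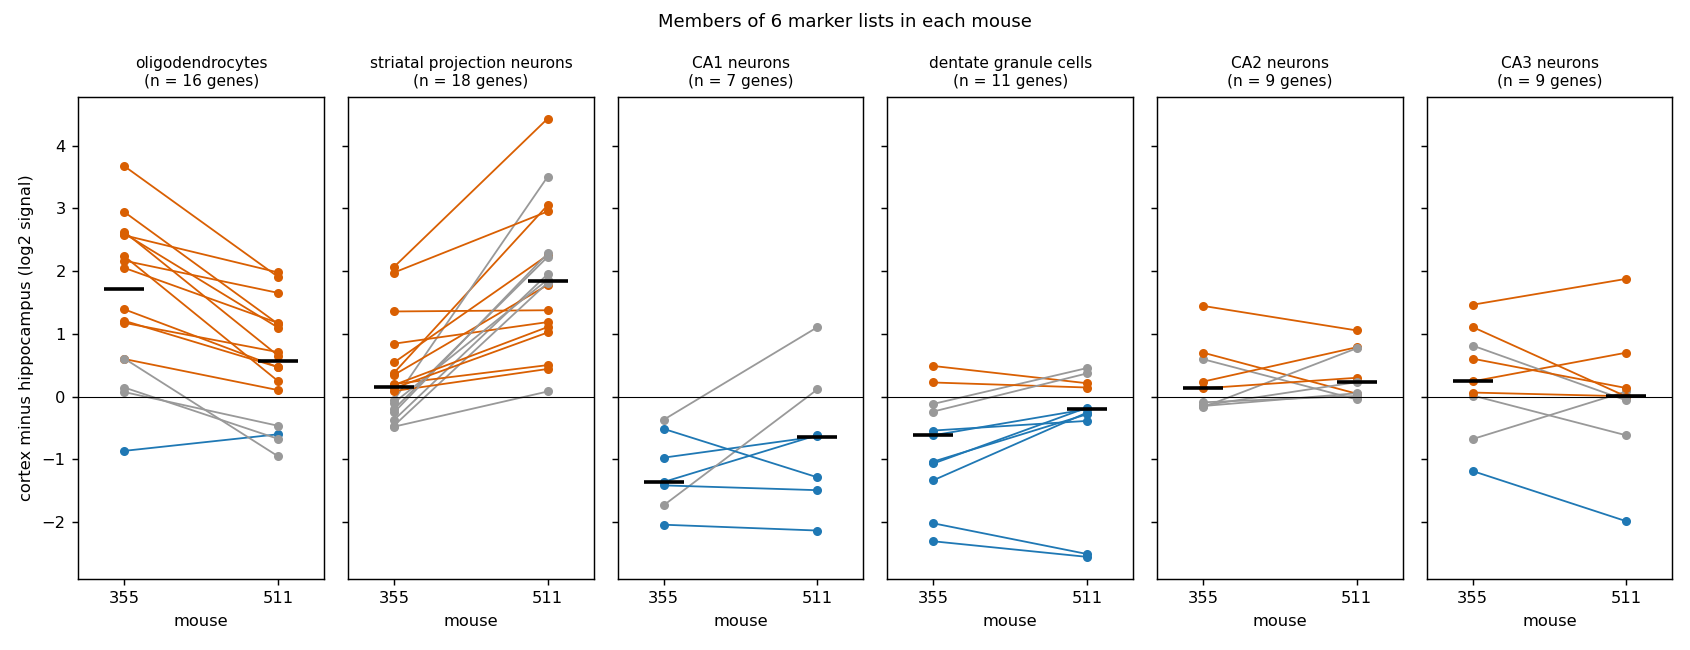
Cortex minus hippocampus (log2 signal, y axis) of every measured member of 6 marker lists in each mouse (x axis); lines join a gene, black bars are medians, and orange, blue and grey mark genes brighter in the cortex of both mice, in the hippocampus of both, or in neither. Oligodendrocyte genes are mostly orange, CA1 genes mostly blue, striatal genes climb in mouse 511, and the bars of the CA2 and CA3 lists lie near 0.

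Markers of cortical layers divided between the regions. Lamp5, a membrane protein of upper layers and of some interneurons, had 8.60 in the mouse 355 cortex and 7.39 in the mouse 511 cortex, against 6.13 and 6.97 in the hippocampus. Cux1, a homeobox factor of upper layers, was brighter in the cortex by 0.75 and 0.51, and Cux2 by 0.26 and 0.17. Rorb, the receptor that marks layer 4 of sensory areas, was dimmer in the cortex, with -0.11 and -0.44. In all, 3 of 10 upper layer genes were brighter in the cortex of both mice and 3 in the hippocampus of both. Over all genes these shares were 27.1% and 24.5%.

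Of 14 deep layer genes, 8 were brighter in the hippocampus of both mice and 1, Ccn2 (0.58 and 0.20), in the cortex of both. Next to Fezf2, Crym, a thyroid hormone binding protein, had -0.72 and -1.25, Etv1, a factor of layer 5, had -0.65 and -0.40, and Rbp4, a retinol carrier, had -1.03 and -0.45. Of 6 genes of entorhinal and piriform principal cells, 0 were brighter in the cortex of both mice. Reln, the secreted protein reelin of layer 2, had -0.42 and 0.38, and Lmo3 differed by -0.03 and 0.01. In none of these lists was most of the genes brighter in the cortex of both mice.

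Genes shared by principal neurons were bright in both regions. Slc17a7, which encodes Vglut1, had 9.51 and 9.96 in the cortex against 9.83 and 9.79 in the hippocampus, and Camk2a, a kinase of excitatory synapses, differed by -0.48 and 0.07. Of 18 such genes, 3 were brighter in the cortex of both mice and 6 in the hippocampus of both, and 0 differed 2-fold in both. The median difference of the list was -0.465 in mouse 355 and 0.114 in mouse 511. Its mean signal was 7.351 in the mouse 355 cortex and 8.008 in the mouse 511 cortex, and it was 7.85 and 7.945 in the hippocampus. Slc30a3, which loads zinc into synaptic vesicles, was brighter in the cortex by 0.79 and 1.59. Neurod6, a factor of these neurons, was low on a single array, with 5.27 in the mouse 355 cortex, 9.28 in the mouse 511 cortex, and 8.14 and 8.81 in the hippocampus. On the same array Slc17a6, the gene of Vglut2 in subcortical neurons, had 8.24, against 6.24 in the cortex of mouse 511 and 4.29 and 6.28 in the hippocampus.

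GABAergic genes showed no common direction. Of 25 measured, 9 were brighter in the cortex of both mice and 5 in the hippocampus of both, beside 27.1% and 24.5% of all genes. Slc32a1, which loads GABA into vesicles, had 7.05 and 7.54 in the cortex against 6.09 and 6.35 in the hippocampus, while Gad1, the synthesizing enzyme, differed by -0.17 and -0.31. Beside Vip, Kit, a receptor tyrosine kinase, was brighter in the hippocampus with -1.41 and -0.72, and Tac2, the precursor of neurokinin B, with -1.22 and -0.68. Sst, Pvalb and Npy, which mark the large interneuron classes, each had opposite directions in the mice, with 0.92 and -0.91, 0.95 and -1.04, and -0.58 and 0.82. Dlx5, a factor of forebrain GABA neurons, had 0.10 and 2.57.

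Of 34 neuropeptide genes, 12 were brighter in the cortex of both mice and 4 in the hippocampus of both. Over all genes these shares were 27.1% and 24.5%. Besides Penk, Cartpt, the CART peptide precursor, had 7.92 and 7.95 in the cortex against 6.15 and 6.88 in the hippocampus. Trh, the gene of thyrotropin-releasing hormone, had 8.31 in the cortex of mouse 355, while the other 3 arrays lay between 3.70 and 4.58. Grp, gastrin-releasing peptide, was brighter in the hippocampus with -0.85 and -0.54. Peptide signals of the cortex thus rested on both animals for Cartpt and on mouse 355 for most of the difference in Trh.

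Among 39 neuropeptide receptors, 14 were brighter in the cortex of both mice and 9 in the hippocampus of both. Over all genes these shares were 27.1% and 24.5%. Sstr4, a somatostatin receptor, had 6.90 and 8.51 in the hippocampus against 5.83 and 5.85 in the cortex, and Npy1r, the Y1 receptor of neuropeptide Y, was brighter in the hippocampus with -1.13 and -0.99. Oprk1, the kappa opioid receptor, was brighter in the cortex by 0.67 and 2.59. Of the 34 receptors of monoamines, acetylcholine and histamine, Chrm2, the muscarinic M2 receptor, had 5.85 and 6.56 in the cortex against 4.44 and 4.60 in the hippocampus (log2 fold change 1.68, standard error 0.24, unadjusted p = 0.00106 from limma). Htr1f, a serotonin receptor, had differences of 1.58 and 0.98, and Htr2c 0.82 and 0.85. The M2 and M5 receptors were the members 2-fold apart in both mice, in opposite directions.

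At most 2 genes of each ion channel and transmitter receptor list differed 2-fold in both animals. Over all genes the shares were 0.307% for the cortex and 0.198% for the hippocampus. Among 25 sodium, calcium and HCN channel genes, Scn4b alone passed 2-fold in both mice. Of 56 potassium channel genes, 14 were brighter in the cortex of both mice and 17 in the hippocampus of both, and Kcnv1 and Kcna6, a Kv1 subunit (1.21 and 1.39), were the 2 members at least 2-fold brighter in the cortex. Kcnc2, a Kv3 subunit of fast-spiking neurons, was brighter in the hippocampus with -0.99 and -1.48, and Kcnn2, a calcium-activated channel, with -0.96 and -0.85. Of 29 ionotropic glutamate receptor and auxiliary genes, 5 and 8 were brighter in the cortex or the hippocampus of both mice, and Cacng5 alone passed 2-fold. Of 12 GABA-A subunits, 5 and 3 were, with Gabrg3 at 6.65 and 7.20 in the cortex against 5.65 and 6.10 in the hippocampus. Hpcal1 and Necab3, calcium-binding proteins of neurons, had even differences of 1.20 and 1.13 and of 1.19 and 1.21.

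Transcription factors that pattern the forebrain tell neighboring regions apart in the embryo, and many stay on in adult neurons. Of 55 measured, 27 were brighter in the hippocampus of both mice and 10 in the cortex of both, beside 24.5% and 27.1% of all genes, and 8 and 4 had an unadjusted p under 0.05 in limma, beside 2.2% and 2.03% of all genes. Emx2, which patterns the medial cortex and hippocampus, had 5.81 and 6.41 in the hippocampus against 4.78 and 5.56 in the cortex. Lmo1, a LIM domain protein, had -0.71 and -1.24, and Nr3c2, the mineralocorticoid receptor, had -0.67 and -1.22. On the cortical side stood Dach1, Meis2, a homeobox factor of the lateral forebrain (1.10 and 1.41), and Mef2c, a factor of cortical neurons (1.22 and 0.45). Meis2 is also a gene of striatal neurons.

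Immediate early genes are those that neurons transcribe within minutes of activity or stress. Of 19, 9 were brighter in the hippocampus of both mice and 3 in the cortex of both, and the medians were -0.74 in mouse 355 and -0.04 in mouse 511. Fosl2 had 7.64 and 7.28 in the hippocampus against 5.92 and 6.24 in the cortex, Jun had differences of -1.58 and -0.86, and Junb of -1.33 and -0.73. Btg2, which restrains proliferation, had -0.85 and -1.62. Egr3 went the other way by 0.67 and 1.44, and Fos and Arc, the usual markers of recent activity, had opposite directions in the mice.

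Lists of wiring and signaling genes held few genes 2-fold apart. Of 53 axon guidance genes, 11 were brighter in the cortex of both mice and 17 in the hippocampus of both, with Nrp1, a semaphorin receptor, at -0.68 and -1.41. Of 24 cadherins and protocadherins, 6 and 7 were, and Cdh12 was 2-fold brighter in the hippocampus, with -1.24 and -1.55. The 30 Wnt genes were split evenly, 9 and 9, and besides Rspo3 held Dkkl1, brighter in the cortex by 1.00 and 0.84, and Wnt7b, brighter in the hippocampus with -0.63 and -0.81. The 11 genes of perineuronal nets, the matrix around parvalbumin neurons, had medians of -0.02 and -0.02.

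The list medians of other glia and of vessel cells were smaller in size than those of oligodendrocytes. Of 14 endothelial and mural genes, 7 were brighter in the hippocampus of both mice and 2 in the cortex of both. Over all genes the shares were 24.5% and 27.1%. An unadjusted p under 0.05 in limma was found for 3 of the 14, all brighter in the hippocampus, beside 2.2% of all genes. Of 11 microglial genes, 2 were brighter in the hippocampus of both mice and 2 in the cortex of both. Gfap, the filament protein of astrocytes, had 8.54 and 7.28 in the hippocampus against 5.86 and 6.02 in the cortex, but of 18 astrocyte genes 7 were brighter in the hippocampus of both mice and 2 in the cortex of both, and Gfap was the single one 2-fold apart. Slc1a3, a glutamate transporter, had -0.73 and -0.35, and Aqp4, the water channel of astrocyte endfeet, had -0.63 and 0.48. Of the microglial genes, P2ry12, a purine receptor, had -0.89 and -0.73, and Cx3cr1, a chemokine receptor, 0.22 and 0.09. Next to Acta2, the mural genes Tagln (-0.89 and -0.71) and Pdgfrb (-0.55 and -0.85) were brighter in the hippocampus, while Cldn5 of the endothelium had opposite directions. Ttr, the main product of the choroid plexus, had 5.15 and 4.09 in the hippocampus against 3.84 and 3.81 in the cortex, near the array medians. Clic6 of the same tissue, which lay below the array median on all 4 arrays, was brighter in the cortex by 0.40 and 0.54, as were the ependymal genes Ccdc153 by 0.38 and 0.36 and Foxj1 by 0.15 and 0.41. Blood genes are not analysed here.

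**Figure D4:**
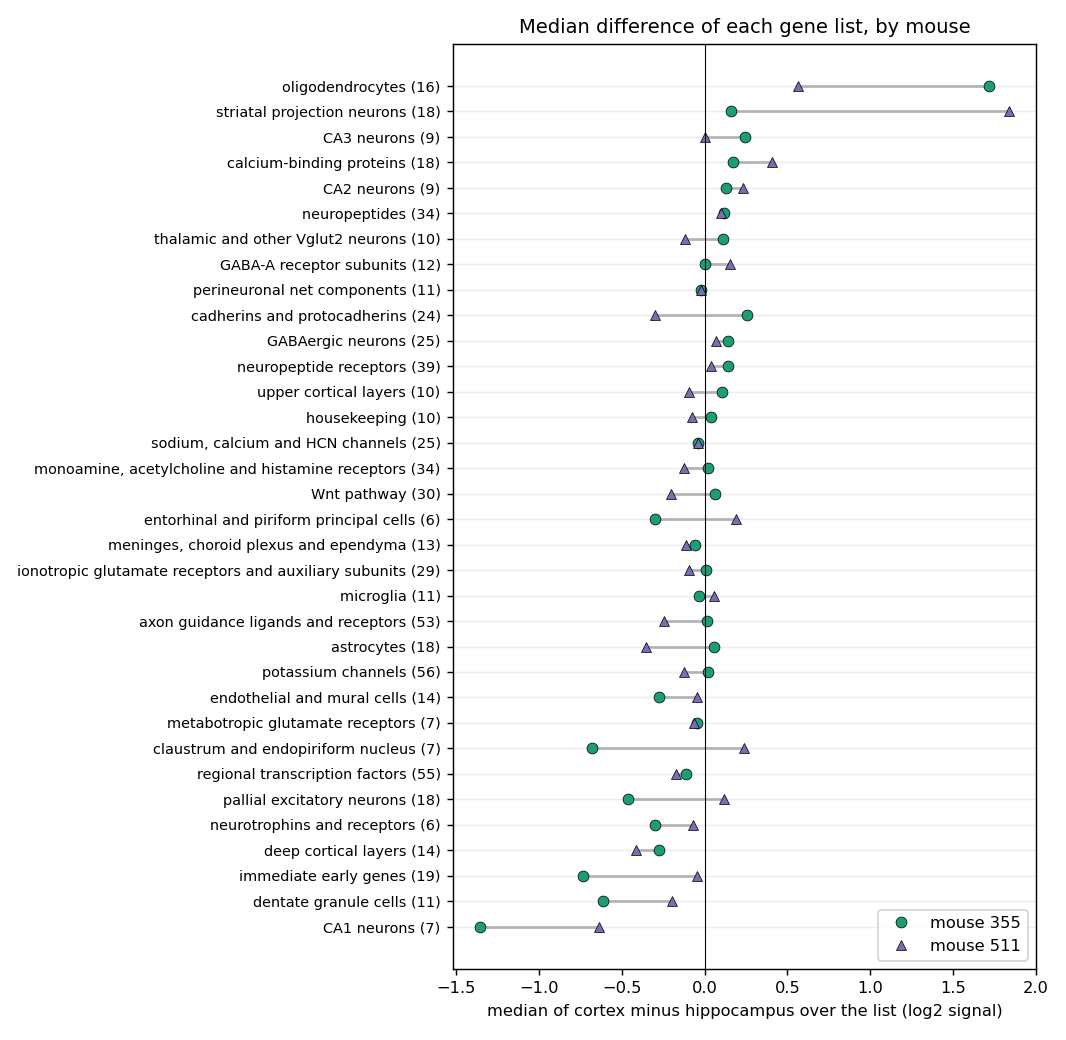
Median of cortex minus hippocampus (log2 signal, x axis) over each gene list, with the number of measured genes in brackets, in mouse 355 (circles) and mouse 511 (triangles). The oligodendrocyte list is to the right and the CA1 list to the left in both mice, the striatal list lies far right in mouse 511 only, and most other lists lie near 0.

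The genes with opposite directions in the animals were led by small RNAs and by a pair of neuronal genes. Calb2, the calcium-binding protein calretinin, had 7.11 in the mouse 355 cortex and 4.81 in the mouse 511 cortex, and 4.15 and 6.59 in the hippocampus. Trhr, the receptor of thyrotropin-releasing hormone, had 7.76 in the cortex of mouse 355 and between 3.53 and 5.61 on the other 3 arrays. Of the 41 genes 2-fold apart in opposite directions, 27 (0.122% of all genes) were brighter in the mouse 355 cortex and 14 (0.0631%) in the mouse 511 cortex. In the same direction, 68 genes (0.307%) were 2-fold brighter in the cortex of both mice and 44 (0.198%) in the hippocampus of both.

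Predicted genes and small RNAs were ranked apart. On the cortical side they were led by E030003E18Rik (1.51 and 2.29), Snord17, a small nucleolar RNA (1.33 and 1.81), and 2610044O15Rik8 (1.82 and 1.29). On the hippocampal side they were led by Gm2115, whose differences of -1.81 and -1.78 were nearly equal, Gm17750 (-2.04 and -1.40) and Scarna6, a small RNA of Cajal bodies (-1.40 and -2.15). Genes of these classes made up 4 of the 68 and 3 of the 44.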

How the data were processed

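Tissue of each region and mouse was captured by laser, and its RNA was amplified and hybridized to 1 array per region and mouse. The authors ran RMA (Affymetrix Expression Console, version 1.2.1.20), which background-corrects, quantile-normalizes and summarizes probes, and deposited a log2 signal for each of 41345 probe sets (genome build and annotation not given in the sources used here). The array annotation gave a single symbol to 23521 probe sets, which name 22180 genes, 1082 of them with several probe sets, and 23328 of these probe sets were found by gene ID in RefSeq (GRCm38.p6) under the same symbol.

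limma 3.58.1 in R 4.3.3 was fitted to the 6 arrays with region and mouse as terms (2 residual and 2.769 prior degrees of freedom), and its p-values were corrected by the Benjamini-Hochberg method for all probe sets together, with 0.05 as the threshold. The mouse is a block because the regions came from the same animals, as the sample labels state; the mouse differences of cortex and hippocampus correlated with 0.06. The procedure was run on simulated data with known changes, drawn with independent noise and without a difference between the mice. That run does not stand for the power on these arrays. The 35 gene lists hold 668 genes, of which 618 were measured. The named genes are the 15 with the largest smaller within-mouse difference in each direction whose brighter region lay above the median, 3 predicted genes or small RNAs per direction, up to 4 genes per list, the 10 leading genes with opposite directions and the defining markers, 170 in all. Other list members given with values were chosen after their values were seen, as were Rad54l, Prelp and Prdx4, which border the 2-fold limit. Members and lists were chosen with earlier results of these data known. Precision is limited by the number of arrays. Figures were made in Python 3.11.15 with pandas 2.3.3 and matplotlib 3.10.9.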

Additional observations from a re-analysis of the deposited data

How the results depend on the processing

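With 2 animals, a difference between regions cannot be parted from the exact piece of tissue captured, and signals near the array median bound what can be read of dim genes. In every fit, 0 probe sets passed an adjusted p of 0.05 in limma, with a smallest adjusted p between 0.508 and 1 over the settings. At an unadjusted p under 0.05, 1958 probe sets became 1124 among those above the median and 1223 among those with 1 symbol, where fewer were tested. Without the mouse as a replicate block there were 1740 and with a random block 1748, and leaving out 1 array gave 1799 to 2337. The 68 genes 2-fold brighter in the cortex became 277 at 1.5-fold, 9 at 3-fold and 2 at 4-fold, 198 by the mean of the mice, 471 in mouse 355 alone and 418 in mouse 511 alone. The 44 on the hippocampal side became 280, 9, 5, 156, 365 and 509 under the same settings. With the brighter region above the median, 7158 genes kept the same direction, fewer because dim genes were left out. Loess, median centring or the mean over probe sets gave 63 to 70 genes in place of 68 and 39 to 51 in place of 44.

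Of 2227 values of the 149 named genes with a common direction under alternatives, 9 changed sign, all with 1 array left out, and they belong to 7 genes. Most of these values could not change sign. Fits that altered only the block, the variance estimate or the probe sets tested, or left out a nucleus array, keep the same log2 fold change. The genes were also chosen for a common direction, so the share of sign changes does not measure how stable they are. Over the arrays left out, the log2 fold change ranged from -0.1279 to 0.8745 for Amigo2, from -0.2226 to 3.6533 for Drd1, from -0.3567 to 0.006 for Grm7, from -0.1277 to 0.1971 for Iyd, from -0.0111 to 0.7513 for Nectin3, from -0.6281 to 0.0324 for Sox9 and from -0.1077 to 0.1878 for Tmem119. Drd1 changed sign without the cortex array of mouse 511. Of 68 list medians under loess or centring, 7 moved by more than the spread between the mice.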
